A study of Homo sapiens with 8 samples.

Results

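The 127 long noncoding RNA genes examined here were those whose symbol was LINC followed by a number (85 genes), SNHG followed by a number (20 genes) or MIR followed by a name ending in HG (18 genes), together with MALINC1, MALAT1, NEAT1 and GAS5. They were 127 of the 13842 genes in the deposited table. All passed the filter of 0.5 CPM (a gene's reads scaled to a common library size) in at least 2 libraries, so no member was lost. The rule used symbols only and no measured value. MCF10A is a non-tumorigenic breast epithelial line and DCIS.COM is a line of the same MCF10 series that is used as a model of ductal carcinoma in situ (DCIS). Both had been stably transduced with the lentiviral vector pLOC, either empty (pLOC-empty) or carrying the long noncoding RNA MALINC1 (pLOC-MALINC1), and all 4 groups had been selected with blasticidin. Each group had 2 RNA-seq libraries, 8 in all, from total RNA. MCF10A was grown with horse serum, epidermal growth factor, hydrocortisone, insulin and cholera toxin and DCIS.COM with horse serum only, so line and medium cannot be told apart. The labels name neither clones nor separate cultures, and the p-values therefore measure the spread between these libraries, which may be technical.

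Long noncoding RNAs are transcripts that are not known to code for a protein, and many lie between protein-coding genes. SNHG genes and GAS5 host small nucleolar RNAs (snoRNAs) in their introns, which guide the chemical modification of ribosomal RNA, and several of their spliced transcripts are short-lived because ribosomes read them and they enter nonsense-mediated decay. Genes named MIR with the ending HG are host transcripts from which microRNAs are cut. MALAT1 and NEAT1 stay in the nucleus, where MALAT1 is found at nuclear speckles and NEAT1 is the scaffold of paraspeckles. In breast epithelium miR-205 is known as a microRNA of basal cells.

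The microRNA hosts that the results turn on carry the following mature microRNAs, shown because the hosted sequence is what tells these hosts apart. The libraries did not measure mature microRNAs, so the values given for the hosts are those of the host transcripts. Sequences are from RefSeq (GRCh38.p14), written 5′ to 3′, with the seed (bases 2 to 8) in capitals.
miR-205-5p (MIR205HG): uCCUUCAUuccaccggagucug
miR-205-3p (MIR205HG): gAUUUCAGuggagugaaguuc
miR-503-5p (MIR503HG): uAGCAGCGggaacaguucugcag
miR-210-3p (MIR210HG): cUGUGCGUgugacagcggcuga
miR-924 (MIR924HG): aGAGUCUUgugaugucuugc
miR-3936 (MIR3936HG): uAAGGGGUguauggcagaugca
miR-125b-5p (MIR100HG): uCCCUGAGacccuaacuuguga
let-7a-5p (MIR100HG): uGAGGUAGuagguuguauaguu
miR-100-5p (MIR100HG): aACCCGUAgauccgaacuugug
No seed is shared among these sequences. The let-7a-5p seed is also carried by let-7b-5p of MIRLET7BHG (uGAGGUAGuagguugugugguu), which holds a second copy of let-7a as well, and by miR-4458 of MIR4458HG. miR-205-5p lies at chr1:209432166-209432187 on the plus strand and miR-210-3p at chr11:568112-568133 on the minus strand of that build.

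The libraries held 20604377 to 37550457 reads on genes, of which the members took 0.205% to 0.314%. The members were mostly of low abundance, with a median of 3.03 CPM over the 8 libraries against 22.1 CPM for all genes. Of the 127 members, 30 were over 10 CPM on average and 18 were under 1 CPM, and 1 read was worth 0.0279 to 0.0477 CPM. The basal epithelial keratins KRT5 (1053 to 8766 CPM) and KRT17 (789 to 12595 CPM) were high in all libraries. KRT14, also basal, was at 1424 to 2954 CPM in MCF10A but at 21.1 to 33.6 CPM in DCIS.COM. The luminal keratins KRT8 (786 to 1865 CPM) and KRT18 (479 to 1596 CPM) were high in all libraries as well. Of 12 leukocyte, endothelial and fibroblast markers listed, 3 were among the genes of the table and PTPRC, VWF and COL1A2 were not. The leukocyte marker CD68 was at 11.4 and 11.2 CPM with pLOC-empty and 8.89 and 9.44 CPM with pLOC-MALINC1 in MCF10A, and at 3.59 and 3.53 CPM and 7.05 and 6.95 CPM in DCIS.COM. PECAM1, of endothelium, was at 0.680 to 1.03 CPM in MCF10A, and at 6.06 and 7.21 CPM with pLOC-empty and 0.0874 and 0.177 CPM with pLOC-MALINC1 in DCIS.COM. COL1A1, of fibroblasts, was at 15.1 and 15.9 CPM and 7.38 and 6.61 CPM in MCF10A and at 1.51 to 2.01 CPM in DCIS.COM. The vector groups did not overlap in either line for any of these 3 genes, and their part in the results was not tested. The 2 libraries of DCIS.COM with pLOC-MALINC1 differed more than those of the other groups, with a chi-square per degree of freedom of 20.4 over genes against 3.27 to 6.27. Per kilobase of exon, the most abundant members were MALAT1 (70.9 CPM per kb), SNHG16 (59.9), SNHG29 (50.5), GAS5 (20.1) and MIR205HG (17.6). These lengths are those of all GENCODE exons of a gene merged, so a gene with rarely used exons is placed too low.

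A member was called a DEG at an adjusted p below 0.01 and a change of over 2-fold, by limma on the 4 group means, and log2FC is the log2 fold change of that fit with its standard error (SE). In MCF10A, 4 members (3.15%) were higher and 8 (6.30%) lower with pLOC-MALINC1, where 2.99% and 2.51% of all genes were called in these directions. In DCIS.COM, 1 member (0.787%) was higher and 9 (7.09%) were lower, against 1.44% and 3.08% of all genes. The 1 called higher in DCIS.COM was the transduced MALINC1 itself, which was also 1 of the 4 in MCF10A. At an adjusted p below 0.01 with any fold, 18.9% of the members were lower in each line, near the 18.1% and 16.7% of all genes. The median log2FC of the members was -0.12 in MCF10A and -0.04 in DCIS.COM, and that of all genes was 0.00 and 0.01. Leaving out 1 library of the line, the share called lower was 3.94% to 5.51% in MCF10A, where all genes had 1.99% to 2.33%. In DCIS.COM it was 3.15%, near the 2.70% to 2.92% of all genes, without either pLOC-empty library or pLOC-MALINC1 replicate 1, and 3.94% against 2.75% without pLOC-MALINC1 replicate 2. The MCF10A median was -0.04 without pLOC-empty replicate 2, -0.20 without pLOC-MALINC1 replicate 1 and -0.02 without pLOC-MALINC1 replicate 2. The DCIS.COM median was -0.10 without pLOC-MALINC1 replicate 1 and 0.00 without pLOC-MALINC1 replicate 2. The median SE was 0.19 for the members and 0.073 for all genes.

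**Figure D1:**
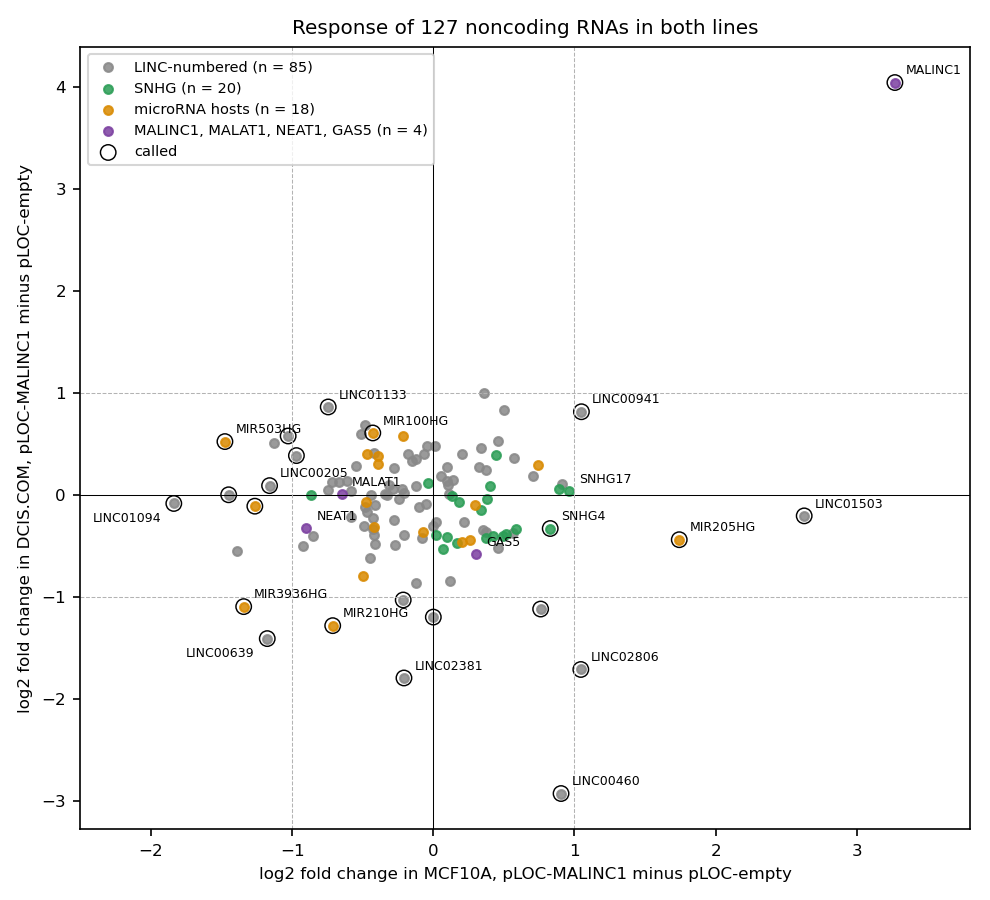
Log2 fold change of each of the 127 noncoding RNAs in MCF10A (x axis) and in DCIS.COM (y axis), pLOC-MALINC1 minus pLOC-empty; colours give the class, dashed lines mark 2-fold and circles mark the 23 members called in a line or for the difference between the lines. MALINC1 stands alone at the upper right, MIR205HG and LINC01503 lie to the right with values below 0 in DCIS.COM, and LINC00460 lies at the bottom.

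MALINC1 itself was at 1.0 and 1.51 CPM with pLOC-empty and at 13.2 and 11.7 CPM with pLOC-MALINC1 in MCF10A. In DCIS.COM the 2 libraries of pLOC-empty had 1.35 and 1.15 CPM and those of pLOC-MALINC1 24.5 and 19.2 CPM. Every pLOC-MALINC1 library was thus above every pLOC-empty library, as the labels say. MALINC1 rose in MCF10A (log2FC of 3.27 ± 0.19 SE, adjusted p = 3.97e-08) and in DCIS.COM (log2FC of 4.04 ± 0.19 SE, adjusted p = 6.93e-09). The difference of 0.77 ± 0.27 SE between these responses was not called (adjusted p = 0.0299), and with pLOC-empty the lines did not differ past the threshold (log2FC of 0.02 ± 0.19 SE, adjusted p = 0.932). Reads from the vector and from the endogenous gene at chr5:139450897-139488859 (GRCh37, minus strand) were counted together. PURA, a neighbour whose exons overlap those of MALINC1 on the other strand, had log2FC values of 0.10 for MCF10A (adjusted p = 0.239) and 0.16 for DCIS.COM (adjusted p = 0.0866).

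Among the RNAs that rose with MALINC1 in MCF10A, MIR205HG, the host of miR-205, went from 10.3 and 11.1 CPM to 34.2 and 37.7 CPM (log2FC of 1.74 ± 0.073 SE, adjusted p = 2.61e-09). In DCIS.COM MIR205HG had 114 and 118 CPM with pLOC-empty and 92.7 and 78.8 CPM with pLOC-MALINC1, a fall of under 2-fold (log2FC of -0.44 ± 0.073 SE, adjusted p = 0.000372). MIR205HG (chr1:209602162-209606193, plus strand, GRCh37) was thus lowest in MCF10A with the empty vector and higher in every other group. TP63, a basal epithelial transcription factor, was likewise lowest in MCF10A with the empty vector. It was at 5.24 and 4.60 CPM in MCF10A with pLOC-empty, at 41.7 and 40.1 CPM with pLOC-MALINC1 and at 49.1 to 57.4 CPM in DCIS.COM. TP63 was named after its values were seen. Of the 9 basal epithelial markers listed, 8 in MCF10A and 5 in DCIS.COM lay higher in both pLOC-MALINC1 libraries than in both pLOC-empty libraries. Their summed level was 25967 to 26334 CPM with pLOC-empty and 32326 to 33106 CPM with pLOC-MALINC1 in MCF10A, and 7022 to 7161 CPM and 7743 to 8018 CPM in DCIS.COM. Of the 6 luminal markers measured, 3 lay higher and 1 lower in MCF10A, and 2 higher and 2 lower in DCIS.COM. The summed level of the luminal markers was 1290 to 1387 CPM with pLOC-empty and 1564 to 1655 CPM with pLOC-MALINC1 in MCF10A, and 3454 to 3502 CPM and 3252 to 3329 CPM in DCIS.COM, the same signs as MIR205HG. The part of the basal and luminal markers in the result was not tested.

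LINC01503 (chr9:132094579-132121828, plus strand) went from 0.241 and 0.841 CPM to 3.29 and 3.17 CPM in MCF10A (log2FC of 2.63 ± 0.34 SE, adjusted p = 4.31e-05). Fitted on the 4 MCF10A libraries alone, LINC01503 was not called (adjusted p = 0.0260). In DCIS.COM the values of LINC01503 were 10.9 and 11.3 CPM with pLOC-empty and 9.79 and 9.37 CPM with pLOC-MALINC1. Like MIR205HG, LINC01503 was lowest in MCF10A with the empty vector. LINC00941 went from 3.79 and 4.87 CPM to 9.39 and 8.57 CPM in MCF10A (log2FC of 1.05 ± 0.15 SE, adjusted p = 8.36e-05) and from 2.66 and 2.39 CPM to 4.25 and 4.73 CPM in DCIS.COM, there under 2-fold (log2FC of 0.81 ± 0.15 SE, adjusted p = 0.000709). The MCF10A value of LINC00941 is close to 2-fold, and the call was lost without pLOC-empty replicate 1 (0.87) or pLOC-MALINC1 replicate 1 (0.98) of MCF10A. GENCODE lists another gene on the same strand over all of the LINC00941 exons, so the reads may belong to either.

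Of the 8 members that fell in MCF10A, LINC00205 (chr21:46707950-46717721, plus strand) was the most abundant, at 5.86 and 5.98 CPM with pLOC-empty and 2.95 and 2.30 CPM with pLOC-MALINC1. Its log2FC was -1.16 ± 0.13 SE (adjusted p = 1.33e-05), and LINC00205 was under 2-fold (-0.99) without pLOC-MALINC1 replicate 2 of MCF10A. MIR924HG went from 4.55 and 4.12 CPM to 1.78 and 1.74 CPM (log2FC of -1.26 ± 0.18 SE, adjusted p = 9.86e-05). In the DCIS.COM libraries LINC00205 was at 7.93 to 8.85 CPM and MIR924HG at 2.05 to 2.91 CPM, and neither passed the test there. The largest fall was that of LINC01094 (chr4:79559934-79604339, plus strand), from 2.03 and 1.59 CPM to 0.334 and 0.604 CPM (log2FC of -1.84 ± 0.29 SE, adjusted p = 0.000226), a call that was lost in a fit on the 4 MCF10A libraries alone (adjusted p = 0.0143). In DCIS.COM LINC01094 was at 0.236 to 0.291 CPM, which is 6 to 10 reads in a library.

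The other falls in MCF10A were of RNAs under 2 CPM. MIR3936HG went from 1.83 and 1.77 CPM to 0.780 and 0.567 CPM (log2FC of -1.34 ± 0.26 SE, adjusted p = 0.000831), and the call was lost without pLOC-MALINC1 replicate 2 (-1.14, adjusted p = 0.0115). Of the MIR3936HG exons, 11.9% lie under exons of the opposite strand, where SLC22A5 has the longest overlap, and MIR3936HG also overlaps the SLC22A4 locus. Without a stated strand setting, reads of MIR3936HG in both lines cannot be told apart from those of these genes there. LINC01085 went from 1.52 and 1.15 CPM to 0.362 and 0.529 CPM (log2FC of -1.45 ± 0.32 SE, adjusted p = 0.00255) and lost the call without replicate 1 of pLOC-empty (adjusted p = 0.0271) or of pLOC-MALINC1 (adjusted p = 0.0254). LINC00965 went from 1.07 and 1.51 CPM to 0.752 and 0.453 CPM (log2FC of -1.03 ± 0.25 SE, adjusted p = 0.00456) and lost it without replicate 2 of pLOC-empty (adjusted p = 0.0509) or of pLOC-MALINC1 (adjusted p = 0.0534). In these 3 RNAs the groups did not overlap in MCF10A. MIR503HG, the host of miR-503, was at 1.48 and 1.11 CPM against 0.279 and 0.604 CPM (log2FC of -1.48 ± 0.40 SE, adjusted p = 0.00781). The call of MIR503HG was lost without any 1 of 5 libraries, which were both of MCF10A pLOC-empty, MCF10A pLOC-MALINC1 replicate 1 and both of DCIS.COM pLOC-MALINC1 (adjusted p of 0.0104 to 0.0887). LINC00639 was at 0.483 and 0.354 CPM against 0.0836 and 0.227 CPM (log2FC of -1.18 ± 0.30 SE, adjusted p = 0.00542), and its call held in 2 of the 8 fits that left out 1 library, without MCF10A pLOC-MALINC1 replicate 2 and without DCIS.COM pLOC-empty replicate 2. In a fit on the MCF10A libraries alone LINC00941 (0.0113), LINC01085 (0.0136), MIR503HG (0.0409), LINC00965 (0.0561) and LINC00639 (0.0661) were not called either, with the adjusted p in parentheses.

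**Figure D2:**
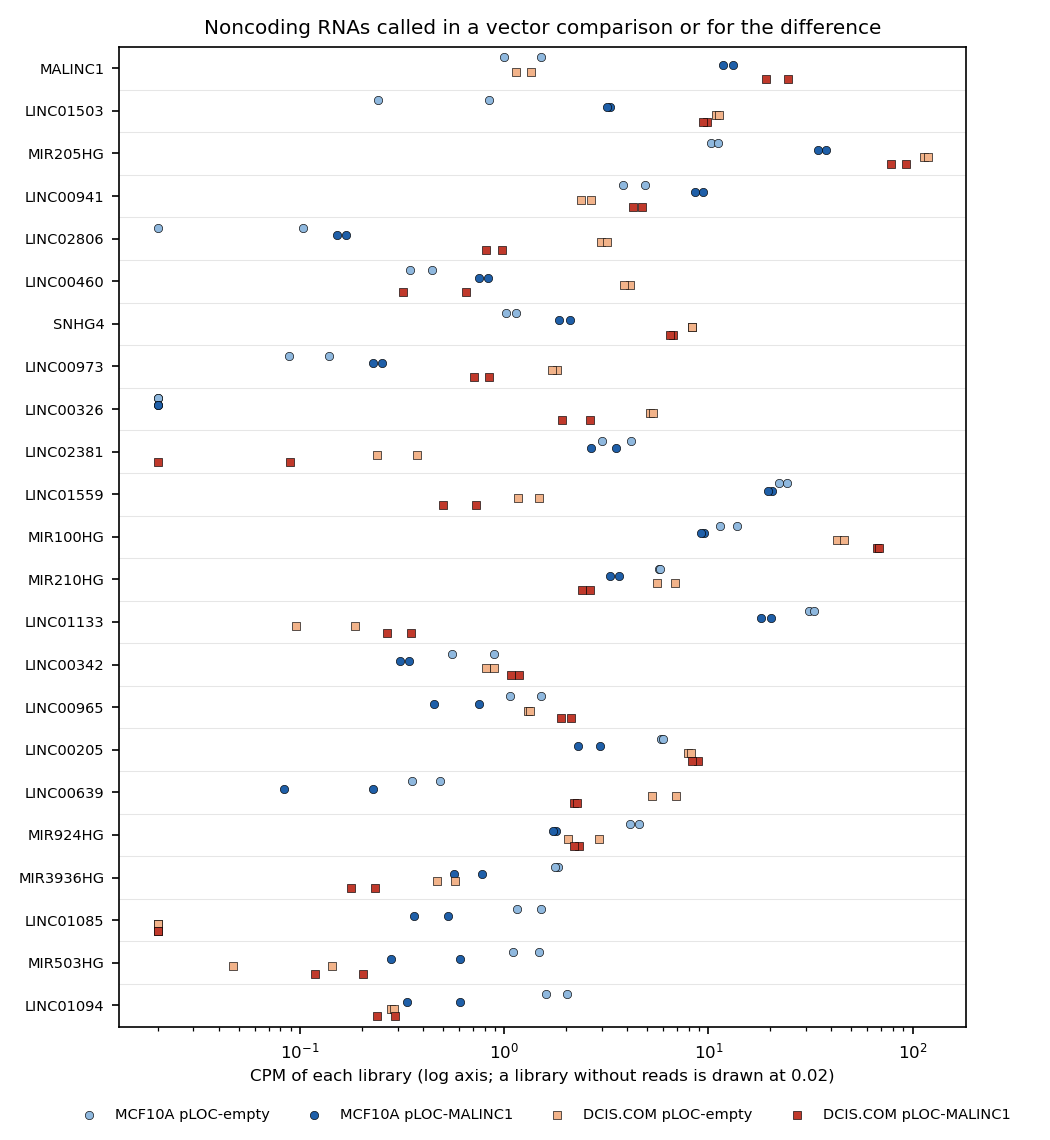
CPM of each library (log axis) for the 23 noncoding RNAs called in a vector comparison or for the difference between the lines, ordered by the log2 fold change in MCF10A; circles are MCF10A and squares DCIS.COM, pale for pLOC-empty and dark for pLOC-MALINC1, and a library without reads is drawn at 0.02. The dark points of MALINC1 lie to the right of the pale ones in both lines, while MIR205HG and LINC01503 moved to the right in MCF10A and LINC00460 to the left in DCIS.COM.

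In DCIS.COM, LINC00460 (chr13:107026825-107036663, plus strand) fell the furthest, from 4.10 and 3.87 CPM with pLOC-empty to 0.320 and 0.650 CPM with pLOC-MALINC1 (log2FC of -2.93 ± 0.28 SE, adjusted p = 4.22e-06). In MCF10A LINC00460 had 0.345 and 0.443 CPM with pLOC-empty and 0.836 and 0.756 CPM with pLOC-MALINC1, which did not pass (log2FC of 0.90 ± 0.28 SE, adjusted p = 0.0172). LINC00460 was thus over 1 CPM in DCIS.COM with the empty vector only. MIR210HG (chr11:565657-568457, minus strand), the host of the hypoxia-induced miR-210, fell from 5.60 and 6.87 CPM to 2.62 and 2.39 CPM in DCIS.COM (log2FC of -1.28 ± 0.14 SE, adjusted p = 1.40e-05). In MCF10A MIR210HG went from 5.69 and 5.76 CPM to 3.65 and 3.29 CPM, which is under 2-fold (log2FC of -0.71 ± 0.14 SE, adjusted p = 0.00117). The calls of both in DCIS.COM held under every alternative tried.

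LINC00639 fell from 6.90 and 5.30 CPM to 2.18 and 2.28 CPM in DCIS.COM (log2FC of -1.41 ± 0.30 SE, adjusted p = 0.00201). LINC00326 fell from 5.18 and 5.35 CPM to 1.92 and 2.63 CPM (log2FC of -1.20 ± 0.26 SE, adjusted p = 0.00270) and had no read in any MCF10A library. LINC02806 fell from 2.98 and 3.20 CPM to 0.816 and 0.975 CPM (log2FC of -1.71 ± 0.36 SE, adjusted p = 0.00214), but 30.5% of its 76-base stretches also occur in another gene, so its reads are uncertain. In these 3 RNAs both pLOC-empty libraries lay above both pLOC-MALINC1 libraries. Each call was lost without single DCIS.COM libraries: LINC00639 without pLOC-empty replicate 1 or either pLOC-MALINC1 library (adjusted p of 0.0159 to 0.0288), LINC00326 without either pLOC-empty library or pLOC-MALINC1 replicate 1 (0.0159 to 0.0352) and LINC02806 without any of the 4 (0.0122 to 0.0238).

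The remaining DCIS.COM calls were close to the thresholds. LINC01559 went from 1.17 and 1.48 CPM to 0.728 and 0.502 CPM (log2FC of -1.03 ± 0.17 SE, adjusted p = 0.000349), which was under 2-fold without replicate 2 of pLOC-empty (-0.87) or of pLOC-MALINC1 (-0.79). LINC00973 went from 1.82 and 1.72 CPM to 0.845 and 0.709 CPM (log2FC of -1.12 ± 0.26 SE, adjusted p = 0.00387) and lost its call without any of the 4 DCIS.COM libraries (adjusted p of 0.0132 to 0.0322). MIR3936HG went from 0.466 and 0.573 CPM to 0.233 and 0.177 CPM (log2FC of -1.10 ± 0.26 SE, adjusted p = 0.00387), which was -0.97 without pLOC-empty replicate 2 and -0.95 without pLOC-MALINC1 replicate 2. The vector groups of DCIS.COM did not overlap in any of these RNAs. For LINC02381, at 0.373 and 0.239 CPM against 0 and 0.0887 CPM (log2FC of -1.80 ± 0.36 SE, adjusted p = 0.00146), the pLOC-empty libraries held 13 reads and the pLOC-MALINC1 libraries 3 reads. This is a ratio of 6.97 with an exact 95% interval of 1.92 to 38.1 that covers counting error only, and the call of LINC02381 was lost without replicate 1 of pLOC-empty (adjusted p = 0.0216) or of pLOC-MALINC1 (adjusted p = 0.0156). In a fit on the DCIS.COM libraries alone, LINC02381 (adjusted p = 0.0324) and LINC01559 (adjusted p = 0.0253) were not called.

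Both lines called MALINC1, LINC00639 and MIR3936HG, in the same direction, which is 25.0% of the 12 members called in MCF10A and 30.0% of the 10 called in DCIS.COM. MALINC1 is the transduced gene, so its call in both lines was set by the design, and it raises these shares. The other 2, LINC00639 and MIR3936HG, were lower in both lines, and their calls were lost without single libraries, as given above. Over all genes 66 were called in both in the same direction, which is 8.67% of the 761 called in MCF10A and 10.5% of the 627 called in DCIS.COM. At an adjusted p below 0.01 with any fold, 8 members moved the same way in both lines and 7 moved in opposite ways, where 1300 and 1081 of all genes did. The RNAs that moved in opposite ways were MIR205HG, GAS5, SNHG7, SNHG8 and SNHG16, which rose in MCF10A and fell in DCIS.COM, and MIR100HG and LINC01133, which fell in MCF10A and rose in DCIS.COM. At this threshold 21.5% of all genes were higher and 18.1% lower in MCF10A, and 16.4% were higher and 16.7% lower in DCIS.COM.

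The difference between the lines was tested itself, as the DCIS.COM response minus the MCF10A response. The test called 7 members above 0 (5.51%) and 6 below 0 (4.72%), against 3.98% and 5.22% of all genes, shares that are near those of all genes. The largest difference was that of LINC00460, at -3.84 ± 0.40 SE on the log2 scale (adjusted p = 7.36e-06). It was followed by LINC01503 at -2.83 ± 0.48 SE (adjusted p = 0.000416), LINC02806 at -2.76 ± 0.52 SE (adjusted p = 0.000813) and MIR205HG at -2.18 ± 0.10 SE (adjusted p = 6.28e-09). LINC00973 was at -1.88 ± 0.37 SE (adjusted p = 0.00114). Of those above 0, LINC01094 was at 1.75 (adjusted p = 0.00399), LINC01133 at 1.61 (0.000741), LINC00965 at 1.61 (0.00265), LINC00205 at 1.25 (0.000140) and MIR924HG at 1.15 (0.00272). Among the differences, those of LINC00460, MIR205HG and LINC00205 were called under all 17 alternatives. The difference of LINC01503 was not called by eBayes without a trend (adjusted p = 0.0171) or by robust eBayes (adjusted p = 0.0204), and that of LINC02806 not without a trend (adjusted p = 0.0111). In MCF10A LINC02806 had 3 reads in all with pLOC-empty and 10 with pLOC-MALINC1, a ratio of 2.76 with an exact 95% interval of 0.710 to 15.6 for counting error only.

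MIR100HG, which hosts let-7a-2, miR-100 and miR-125b-1, was at 11.4 and 13.9 CPM with pLOC-empty and 9.50 and 9.18 CPM with pLOC-MALINC1 in MCF10A (log2FC of -0.43 ± 0.081 SE, adjusted p = 0.000810). In DCIS.COM MIR100HG went from 42.7 and 45.9 CPM to 66.8 and 68.1 CPM (log2FC of 0.61 ± 0.081 SE, adjusted p = 6.77e-05). MIR100HG was lower with pLOC-MALINC1 in one line and higher in the other, each under 2-fold, and the difference of 1.04 ± 0.11 SE was called (adjusted p = 1.28e-05). That difference of MIR100HG was 0.98 without DCIS.COM pLOC-empty replicate 1 and 0.90 without MCF10A pLOC-empty replicate 2. LINC00342 was at 0.552 and 0.886 CPM against 0.306 and 0.340 CPM in MCF10A and at 0.886 and 0.812 CPM against 1.08 and 1.18 CPM in DCIS.COM. The difference of 1.35 ± 0.36 SE for LINC00342 (adjusted p = 0.00852) was called in 1 of the 8 fits that left out 1 library, that without MCF10A pLOC-empty replicate 1.

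The promoters of LINC00460 and LINC01094 are shown because both hold the letters TGACTCA or the reverse complement TGAGTCA, the motif that AP-1 (JUN and FOS) is known to bind. LINC00460 had the largest fall in DCIS.COM and LINC01094 the largest in MCF10A. They are RefSeq sequences (GRCh38.p14) from 250 bases before to 50 bases after the annotated start, on the plus strand, with the motif in capitals.
LINC00460, chr13:106376314-106376613: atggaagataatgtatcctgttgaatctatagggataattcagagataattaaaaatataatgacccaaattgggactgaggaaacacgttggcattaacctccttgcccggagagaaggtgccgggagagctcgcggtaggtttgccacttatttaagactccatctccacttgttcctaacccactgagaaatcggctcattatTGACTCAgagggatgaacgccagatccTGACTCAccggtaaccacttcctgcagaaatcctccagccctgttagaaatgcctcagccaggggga
LINC01094, chr4:78645744-78646043: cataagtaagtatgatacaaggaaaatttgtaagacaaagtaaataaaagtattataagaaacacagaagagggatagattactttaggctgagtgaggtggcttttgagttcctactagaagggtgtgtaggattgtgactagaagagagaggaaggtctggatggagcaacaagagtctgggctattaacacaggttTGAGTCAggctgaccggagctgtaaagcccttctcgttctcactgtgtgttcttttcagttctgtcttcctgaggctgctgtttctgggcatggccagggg
Of the 98 members with a RefSeq promoter, 7 (7.14%) held the motif on either strand, against 1651 of 27305 promoters of the table (6.05%), so the share among the members was near that of all genes. The motif was searched after the values of these genes were known, and a match is a description of the letters only.

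The snoRNA host genes moved little in size but mostly one way. The family of 20 SNHG genes and GAS5 had a median log2FC of 0.38 in MCF10A, where 19 of the 21 were above 0, and of -0.33 in DCIS.COM, where 15 were below 0. The MCF10A median was 0.24 without pLOC-empty replicate 1 and 0.23 without pLOC-MALINC1 replicate 2, and the DCIS.COM median was -0.10 without pLOC-MALINC1 replicate 2. In MCF10A 8 of the 21 (38.1%) were higher at an adjusted p below 0.01 with any fold and 0 were lower, against 21.5% and 18.1% of all genes. In DCIS.COM 1 (4.76%) was higher and 8 (38.1%) were lower, against 16.4% and 16.7% of all genes. Leaving out 1 library of the line, 6 to 8 were higher in MCF10A, and 8 were lower in DCIS.COM in each of the 4 fits. For the difference between the lines 0 were higher and 11 (52.4%) were lower, against 15.6% and 20.3% of all genes. Over all settings tried, 18 to 20 were above 0 in MCF10A and 12 to 18 below 0 in DCIS.COM. In the vector comparisons 0 of the 21 were called at over 2-fold, and for the difference SNHG4 alone was called.

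**Figure D3:**
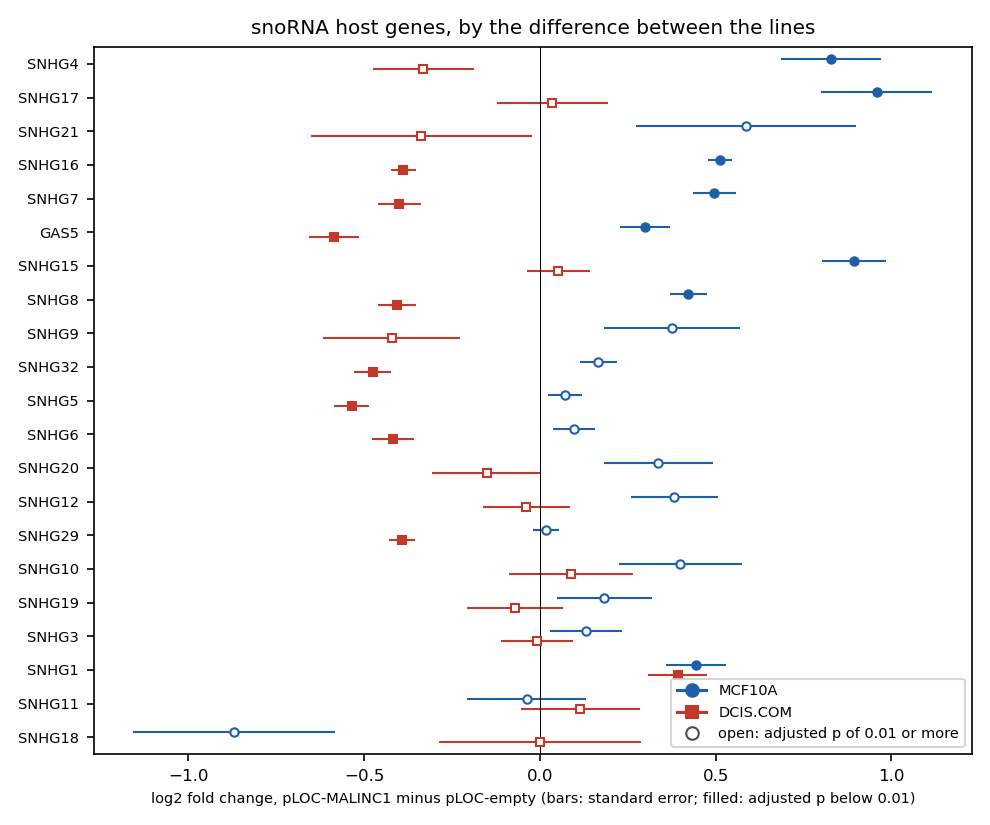
Log2 fold change (pLOC-MALINC1 minus pLOC-empty) of the 20 SNHG genes and GAS5 in MCF10A (blue circles) and DCIS.COM (red squares), with standard errors, ordered by the difference between the lines; filled symbols passed an adjusted p of 0.01. The blue symbols lie to the right of the red ones in 19 of the 21 genes, with SNHG11 and SNHG18 as the exceptions.

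SNHG16, the most abundant SNHG gene per kilobase, was at 188 and 193 CPM with pLOC-empty and at 263 and 280 CPM with pLOC-MALINC1 in MCF10A (log2FC of 0.51 ± 0.035 SE, adjusted p = 1.61e-07). In DCIS.COM SNHG16 fell from 525 and 519 CPM to 399 and 399 CPM (log2FC of -0.39 ± 0.035 SE, adjusted p = 2.17e-06). The vector groups of SNHG16 did not overlap in either line. Of the SNHG16 exons, 28.5% lie under exons of the opposite strand, as do 30.3% of those of SNHG7 and 37.6% of those of SNHG8. Without a stated strand setting, reads in these stretches cannot be told apart from those of the opposite genes. GAS5 rose from 50.4 and 47.2 CPM to 54.7 and 65.8 CPM in MCF10A (log2FC of 0.30 ± 0.071 SE, adjusted p = 0.00373) and fell from 175 and 171 CPM to 120 and 111 CPM in DCIS.COM (log2FC of -0.59 ± 0.071 SE, adjusted p = 3.01e-05), each under 2-fold. SNHG4 was at 1.14 and 1.02 CPM against 2.09 and 1.85 CPM in MCF10A and at 8.35 and 8.26 CPM against 6.67 and 6.50 CPM in DCIS.COM. The responses of SNHG4 differed by -1.16 ± 0.20 SE on the log2 scale (adjusted p = 0.000479).

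The largest SNHG rise in MCF10A was that of SNHG17, from 2.97 and 2.97 CPM to 5.66 and 6.01 CPM (log2FC of 0.96 ± 0.16 SE, adjusted p = 0.000283). The lowest value in MCF10A was that of SNHG18, at 1.72 and 1.95 CPM against 0.892 and 1.06 CPM (log2FC of -0.87 ± 0.29 SE), which did not pass (adjusted p = 0.0229). In DCIS.COM SNHG18 had no read. The largest fall of an SNHG gene in DCIS.COM was that of SNHG5, from 80.4 and 80.3 CPM to 57.8 and 53.1 CPM (log2FC of -0.54 ± 0.049 SE, adjusted p = 2.82e-06). SNHG1 rose in both lines, with a log2FC of 0.39 in DCIS.COM (adjusted p = 0.00233) and of 0.44 in MCF10A (adjusted p = 0.000822). SNHG29 was at 468 and 445 CPM against 449 and 476 CPM in MCF10A and fell from 500 and 508 CPM to 382 and 386 CPM in DCIS.COM (log2FC of -0.39 ± 0.037 SE, adjusted p = 3.61e-06).

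Together the family took 0.0922% and 0.0915% of the reads in MCF10A with pLOC-empty and 0.103% and 0.109% with pLOC-MALINC1. In DCIS.COM it took 0.160% and 0.161% with pLOC-empty and 0.136% and 0.135% with pLOC-MALINC1. With pLOC-empty 20 of the 21 were higher in DCIS.COM than in MCF10A, with a median log2 difference of 0.75, and with pLOC-MALINC1 12 were, with a median of 0.05. Of the intronic snoRNAs of these genes, 7 from 5 hosts were among the tested genes, and all 7 had values above 0 in MCF10A and below 0 in DCIS.COM. SNORA71A, SNORA71C and SNORA71D are all from SNHG17. Of the 7, 1 passed as higher in MCF10A and 2 as lower in DCIS.COM, where 21.5% and 16.7% of all genes did. SNORD78 of GAS5 rose in MCF10A, from 0.448 and 0.443 CPM to 1.0 and 1.28 CPM (log2FC of 1.22 ± 0.26 SE, adjusted p = 0.00200). In DCIS.COM SNORA73B of SNHG3 fell from 224 and 194 CPM to 163 and 101 CPM (log2FC of -0.71 ± 0.16 SE, adjusted p = 0.00312), and SNORA71D of SNHG17 from 4.76 and 3.63 CPM to 1.75 and 1.15 CPM (log2FC of -1.5 ± 0.27 SE, adjusted p = 0.000744). The host SNHG3 itself did not move in DCIS.COM (log2FC of -0.01 ± 0.10 SE, adjusted p = 0.959). The other 4 snoRNAs passed in neither line.

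Other small RNAs without a poly(A) tail were also lower in DCIS.COM with pLOC-MALINC1. Of RN7SL1, RN7SL2, RN7SK, RMRP, RPPH1 and TERC, which are RNA parts of complexes such as the signal recognition particle and telomerase, 4 of the 6 passed there (adjusted p below 0.01, any fold), with a median log2FC of -0.41. The count was 1 without pLOC-empty replicate 1, 2 without pLOC-empty replicate 2 and 2 without pLOC-MALINC1 replicate 2, with medians of -0.36, -0.45 and -0.37. In MCF10A 1 was higher and 1 was lower, with a median of -0.16. RN7SL1 and RN7SL2 took 15.7% and 14.0% of the reads in DCIS.COM with pLOC-empty and 11.5% and 8.22% with pLOC-MALINC1, and 10.4% to 13.2% in MCF10A. The lowest share was that of pLOC-MALINC1 replicate 2, the library without which the family median was smaller, and its part in the result was not tested. Of 13 snoRNP core proteins and assembly factors, which bind snoRNAs, 10 were higher and 0 lower in MCF10A (median of 0.40), and 7 were higher and 0 lower in DCIS.COM (median of 0.15). Of 14 factors of nonsense-mediated decay, 2 were higher and 2 lower in MCF10A (14.3% each, median of 0.03). In DCIS.COM 4 of them (28.6%) were higher and 0 lower (median of 0.13). For the snoRNP list the shares higher were 76.9% in MCF10A and 53.8% in DCIS.COM. At this threshold 21.5% of all genes were higher and 18.1% lower in MCF10A, and 16.4% were higher and 16.7% lower in DCIS.COM.

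The start of the transcript is shown for 4 genes of the family because snoRNA hosts are known for a tract of pyrimidines there, a feature shared with ribosomal protein mRNAs. Each window runs from 15 bases before to 30 bases after the start (RefSeq, GRCh38.p14), and capitals mark a C followed by at least 6 pyrimidines that begins within 5 bases of the start.
SNHG4, chr5:139274086-139274130, plus strand: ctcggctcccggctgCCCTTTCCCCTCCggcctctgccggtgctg
SNHG12, chr1:28581844-28581888, minus strand: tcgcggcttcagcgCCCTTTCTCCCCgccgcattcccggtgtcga
SNHG16, chr17:76557749-76557793, plus strand: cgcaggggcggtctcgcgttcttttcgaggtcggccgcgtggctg
SNHG5, chr6:85678704-85678748, minus strand: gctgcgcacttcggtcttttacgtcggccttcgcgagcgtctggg
Of the 18 genes of the family with a promoter in the table, 3 (SNHG4, SNHG12 and SNHG18) held such a tract, which is 16.7%. The share was 9.32% of all 27305 promoters, 11.3% of those of tested genes, 13.3% of those of all members and 17.6% of those of the microRNA hosts. SNHG16 and SNHG5 did not hold the run that was searched. Shorter runs of pyrimidines after a C, such as that at the SNHG5 start, were not counted. The shares therefore depend on the length chosen and do not show how often these hosts carry a tract.

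MALAT1, the most abundant member, was at 792 and 930 CPM with pLOC-empty and at 526 and 570 CPM with pLOC-MALINC1 in MCF10A (log2FC of -0.65 ± 0.092 SE, adjusted p = 9.19e-05), a fall of under 2-fold with groups that did not overlap. In DCIS.COM MALAT1 had 753 and 788 CPM against 868 and 688 CPM, where the groups overlapped (log2FC of 0.01 ± 0.092 SE, adjusted p = 0.973). The responses of MALAT1 differed by 0.65 ± 0.13 SE (adjusted p = 0.00131), which was not a 2-fold difference. NEAT1 fell from 17.7 and 26.5 CPM to 10.3 and 13.0 CPM in MCF10A (log2FC of -0.90 ± 0.18 SE, adjusted p = 0.00132), and was at 51.8 and 55.6 CPM against 51.5 and 35.6 CPM in DCIS.COM (log2FC of -0.33 ± 0.18 SE, adjusted p = 0.169). The MCF10A value of NEAT1 is close to 2-fold, and it was called without pLOC-empty replicate 1 (-1.19) or pLOC-MALINC1 replicate 2 (-1.07). GENCODE places TALAM1 on the opposite strand over 83.7% of the MALAT1 exons, and reads of these 2 genes cannot be told apart, since the strand setting of the counting is not given in the sources used here.

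NEAT1 was higher in DCIS.COM than in MCF10A with both vectors, by 1.31 ± 0.18 SE (adjusted p = 2.48e-05) with pLOC-empty and 1.88 ± 0.18 SE (adjusted p = 8.32e-07) with pLOC-MALINC1 on the log2 scale. Of 12 paraspeckle proteins, which bind NEAT1, 0 were called in either line at over 2-fold by limma. At an adjusted p below 0.01 with any fold, 3 (25.0%) were higher and 0 lower in MCF10A (median of 0.09), against 21.5% and 18.1% of all genes. In DCIS.COM 5 (41.7%) were higher and 2 (16.7%) lower (median of 0.11), against 16.4% and 16.7% of all genes.

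Of the 18 microRNA hosts, 1 rose and 3 fell by over 2-fold in MCF10A, and 0 rose and 2 fell in DCIS.COM, which are described above. Of all genes 2.99% rose and 2.51% fell in MCF10A, and 1.44% rose and 3.08% fell in DCIS.COM. The median log2FC of the class was -0.41 in MCF10A, with 13 of 18 below 0, and -0.11 in DCIS.COM, with 11 of 18 below 0. MIR17HG, which hosts the miR-17 to miR-92a cluster, rose from 3.55 and 2.88 CPM to 4.90 and 5.93 CPM in MCF10A (log2FC of 0.74 ± 0.19 SE, adjusted p = 0.00607). MIR22HG fell from 20.2 and 17.6 CPM to 15 and 13.3 CPM (log2FC of -0.42 ± 0.10 SE, adjusted p = 0.00432), and MIR31HG from 6.10 and 5.71 CPM to 4.43 and 4.08 CPM (log2FC of -0.47 ± 0.12 SE, adjusted p = 0.00645). In DCIS.COM MIR4435-2HG fell (log2FC of -0.47 ± 0.069 SE, adjusted p = 0.000158), but 23.2% of its 76-base stretches also occur in another gene, so its reads are uncertain. These 4 hosts, all under 2-fold, were named after their values were seen, to complete the hosts that passed the test. Of 9 proteins of microRNA processing, such as DROSHA and DICER1, 4 were higher and 2 lower in MCF10A at an adjusted p below 0.01 with any fold (median of 0.05), and 4 were higher and 0 lower in DCIS.COM (median of 0.10).

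More members were called between the lines than between the vectors. With pLOC-empty, 36 members (28.3%) were higher in DCIS.COM and 19 (15%) lower, against 15.6% and 13.0% of all genes. With pLOC-MALINC1, 37 (29.1%) were higher and 16 (12.6%) lower, against 14.4% and 12.2%. Of these, 44 were called with both vectors and in the same direction, 28 higher and 16 lower in DCIS.COM, which is 80.0% of the 55 called with pLOC-empty and 83.0% of the 53 called with pLOC-MALINC1. The median log2 difference of the members was 0.47 with pLOC-empty and 0.50 with pLOC-MALINC1, where that of all genes was 0.03 and 0.01. Under quantile normalization these medians were 0.30 and 0.28, and 28 of 53 and 31 of 53 calls were higher in DCIS.COM.

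Among the RNAs higher in MCF10A, LINC01133 was at 31.2 and 32.9 CPM with pLOC-empty and 18.1 and 20.2 CPM with pLOC-MALINC1, and at 0.0955 to 0.350 CPM in DCIS.COM. The log2 difference of LINC01133 was -7.28 ± 0.21 SE (adjusted p = 5.55e-12) with pLOC-empty and -5.67 ± 0.21 SE (adjusted p = 6.73e-11) with pLOC-MALINC1. LINC01605 was at 5.02 to 7.08 CPM in MCF10A and had no read in DCIS.COM, so it was at least 47.1-fold and 60.0-fold lower there with pLOC-empty and pLOC-MALINC1, against a floor of 3 reads in each library. LINC00707 was at 11.9 to 18.8 CPM in MCF10A against 0.373 to 0.641 CPM in DCIS.COM (log2 difference of -4.74 with pLOC-empty and -4.95 with pLOC-MALINC1). LINC01559 was at 19.5 to 24.3 CPM against 0.502 to 1.48 CPM (-4.07 and -4.89), and LINC01116 at 23.2 to 24.0 CPM against 1.72 to 3.06 CPM (-3.41 and -2.94). In these 5 RNAs every MCF10A library lay above every DCIS.COM library.

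Of the RNAs higher in DCIS.COM, LINC00326 was at 1.92 to 5.35 CPM there and had no read in MCF10A, which is at least 44.5-fold and 23.1-fold higher with pLOC-empty and pLOC-MALINC1 against the same floor. LINC00639 was at 2.18 to 6.90 CPM in DCIS.COM against 0.0836 to 0.483 CPM in MCF10A (log2 difference of 3.66 and 3.42). LINC01503 differed by 4.38 with pLOC-empty (adjusted p = 8.60e-08) and by 1.55 with pLOC-MALINC1 (adjusted p = 0.00110). MIR205HG differed by 3.43 (adjusted p = 3.90e-13) and 1.25 (adjusted p = 5.94e-09). For LINC01503 the call with pLOC-MALINC1 was lost without DCIS.COM pLOC-MALINC1 replicate 1 (adjusted p = 0.0121) or MCF10A pLOC-MALINC1 replicate 2 (adjusted p = 0.0114). LINC01002 was at 11.8 to 15.4 CPM against 1.51 to 2.48 CPM (log2 difference of 2.34 and 3.17), but 53.1% of its 76-base stretches occur in other genes. Over all members, 10 reached 0.5 CPM in MCF10A libraries only and 9 in DCIS.COM libraries only, and 98 reached it in all 4 groups.

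**Figure D4:**
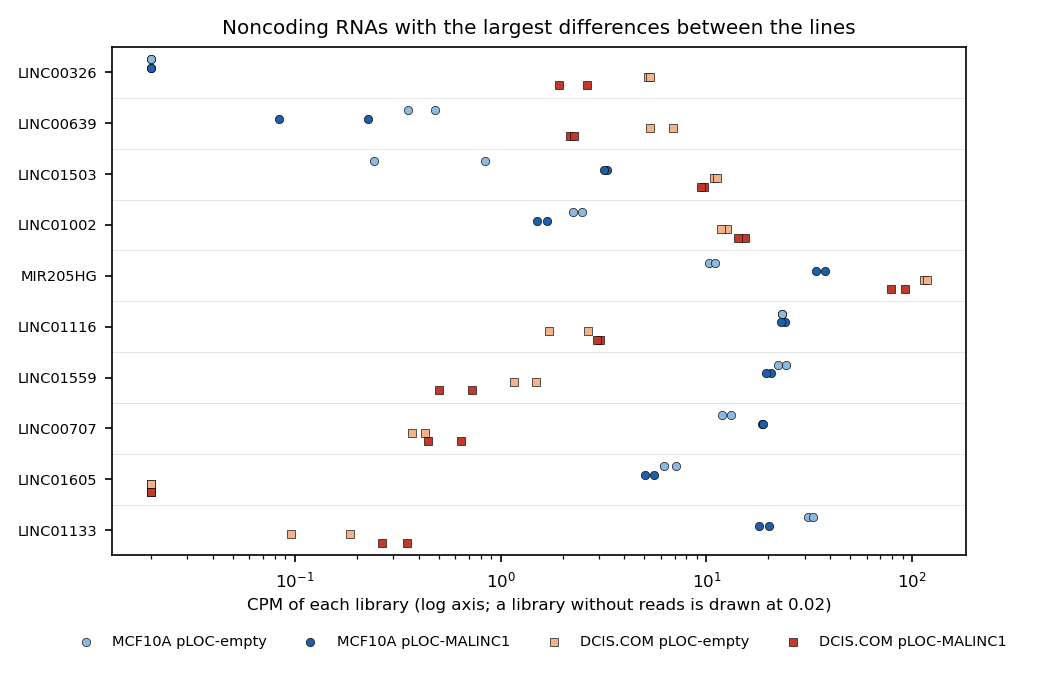
CPM of each library (log axis) for the 10 noncoding RNAs with the largest differences between the lines, 5 in each direction; circles are MCF10A and squares DCIS.COM, pale for pLOC-empty and dark for pLOC-MALINC1, and a library without reads is drawn at 0.02. LINC00326 was without reads in MCF10A and LINC01605 in DCIS.COM, and for LINC01503 and MIR205HG the dark circles lie between the pale circles and the squares.

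The nearest tested protein-coding gene was compared for the 18 members that were called in a vector comparison and matched to GENCODE. Of these neighbours 0 were called by limma in either line, and 11 of 18 in MCF10A and 11 of 18 in DCIS.COM had an unadjusted p below 0.05, with log2FC values from -0.94 to 0.83. Of all genes 58.5% and 52.8% had such a p, so the count of neighbours was near that of all genes. SLC22A4, a transporter gene that overlaps MIR3936HG on the opposite strand, was the lowest, at 1.68 and 1.15 CPM against 0.641 and 0.739 CPM in DCIS.COM (log2FC of -0.94 ± 0.21 SE, adjusted p = 0.00277). In MCF10A, where MIR3936HG was called lower, SLC22A4 was at 3.62 and 3.14 CPM against 2.51 and 2.46 CPM (log2FC of -0.43 ± 0.21 SE, adjusted p = 0.0999). LAMB3, a laminin gene 182 kb from MIR205HG, had log2FC values of 0.21 ± 0.033 SE for MCF10A (adjusted p = 0.000243) and -0.89 ± 0.033 SE for DCIS.COM (adjusted p = 1.09e-09), the same signs as MIR205HG. EFNB2, which codes for an ephrin and lies 105 kb from LINC00460, had log2FC values of 0.56 ± 0.046 SE for MCF10A (adjusted p = 8.58e-07) and 0.06 ± 0.046 SE for DCIS.COM (adjusted p = 0.276), where LINC00460 had 0.90 and -2.93. Other neighbours moved against their member. EMP1 was the highest, at 0.83 ± 0.042 SE in DCIS.COM (adjusted p = 1.23e-08), where LINC01559 fell. IER5L was at -0.41 ± 0.062 SE in MCF10A (adjusted p = 0.000160), where LINC01503 rose. Signs were not counted over the 18 pairs.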

How the data were processed

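Gene expression in MCF10A and DCIS.COM cells with pLOC-empty or pLOC-MALINC1 was measured by RNA-seq, with 2 libraries in each of 4 groups. The authors prepared ScriptSeq v2 libraries, read 76 bases from both ends, aligned with Rsubread (hg19), assigned reads to UCSC genes by featureCounts and normalized with edgeR. The deposited unit is log2 CPM, in which a prior of 2 reads, in proportion to library size, was found from the values. Versions, the strand setting and the filter on low expression are not given in the sources used here. Whole reads were recovered from the deposited log2 values (100% of them within 0.1 read), and the CPM printed are these reads without the prior. Log2 fold changes are on the deposited scale and understate the change of rare RNAs.

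All 13842 genes were fitted together on the deposited log2 CPM (limma 3.58.1, R 4.3.3, eBayes with a trend, Benjamini-Hochberg adjustment over all genes) with 4 group means over the 8 libraries. The steps were tested on simulated counts in which no gene of low abundance was changed, so changes of the rarest members were not covered. Python 3.11.15 served for the tables, with pandas 2.3.3 and numpy 2.4.6, and matplotlib 3.10.9 for the figures. Of the members, 114 were matched to GENCODE release 44 on GRCh37, the build of the files, and 98 to a RefSeq promoter.

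The members, lists and motifs were chosen with earlier results of these data known. Named were MALINC1, MALAT1, NEAT1 and GAS5, the members called in a vector comparison or for the difference, the 5 largest line differences in each direction among members called with both vectors and at 5 CPM or more in the higher group, the 5 highest levels per kilobase (without genes of which 75% or more of the exons are shared with another gene of the strand), the largest SNHG rise and fall in each line and the nearest protein-coding gene of members called in a vector comparison. The other lists were paraspeckle proteins, nonsense-mediated decay factors, snoRNP proteins, microRNA processing and small RNAs without a poly(A) tail. Alternatives changed the pseudocount, filter, scaling, model, thresholds and libraries. Precision is limited by 2 libraries a group and by few reads in most members.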

Additional observations from a re-analysis of the deposited data

Results flagged for a closer look

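For 13 members the response to MALINC1 differed between the lines by the test of the difference itself (DCIS.COM response minus MCF10A response, log2 scale). Below 0 were LINC00460 at -3.84, LINC01503 at -2.83, LINC02806 at -2.76, MIR205HG at -2.18, LINC00973 at -1.88 and SNHG4 at -1.16. Above 0 were LINC01094 at 1.75, LINC01133 at 1.61, LINC00965 at 1.61, LINC00342 at 1.35, LINC00205 at 1.25, MIR924HG at 1.15 and MIR100HG at 1.04.

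In MIR205HG, MIR100HG and LINC01133 the response had opposite signs in the 2 lines and an adjusted p below 0.01 in each. In LINC00460, LINC02806, LINC00973 and SNHG4 the signs were also opposite, but 1 of the 2 responses did not pass at this threshold. The signs of LINC01503, LINC00965, LINC00205 and LINC00342 were opposite as well, with at least 1 response that did not pass.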

How the results depend on the processing

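The calls of MALINC1, MIR205HG, LINC00460 and MIR210HG and the differences of LINC00460, MIR205HG and LINC00205 kept their direction and side of the threshold under every alternative, as did 34 of 65 values of named members. With 1 CPM as pseudocount 3 members were called in MCF10A, 5 in DCIS.COM, 5 for the difference and 34 between the lines with pLOC-MALINC1, and with 0.5 CPM 6 in MCF10A and 6 in DCIS.COM. These pseudocounts shrink the changes of rare RNAs by their construction. Fitted on its own 4 libraries, MCF10A had 5 calls, with fewer residual degrees of freedom. Without the 2-fold limit the counts were 39 in MCF10A, 31 in DCIS.COM, 34 for the difference, 90 between the lines with pLOC-empty and 84 with pLOC-MALINC1. In MCF10A 11.8% of the members were then higher and 18.9% lower, against 21.5% and 18.1% of all genes. In DCIS.COM these shares were 5.51% and 18.9%, against 16.4% and 16.7%. For the difference they were 11.0% and 15.7%, against 15.6% and 20.3%. With pLOC-empty 49.6% were higher in DCIS.COM and 21.3% lower, against 37.9% and 36.0%. With pLOC-MALINC1 they were 45.7% and 20.5%, against 35.7% and 37.2%. The shares that fell in each line were thus near those of all genes. Under voom with TMM on recovered reads 10 of the 12, 9 of the 10 and 10 of the 13 calls were kept, and under quantile normalization 4 of 12 calls in DCIS.COM were higher, against 1 of 10.

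Leaving out each library in turn, which assumes that the lone library left in a group varies like the others, gave 10 to 13 calls in MCF10A, 5 to 10 in DCIS.COM, 9 to 15 for the difference, 53 to 59 between the lines with pLOC-empty and 51 to 59 with pLOC-MALINC1. In DCIS.COM the count was 6 without pLOC-empty replicate 1, 5 without pLOC-empty replicate 2 and 5 without pLOC-MALINC1 replicate 1. Over all alternatives NEAT1 in MCF10A ranged from -1.19 to -0.61 and MALAT1 in DCIS.COM from -0.16 to 0.17, with a value below 0 without pLOC-empty replicate 1 (-0.03) or pLOC-MALINC1 replicate 1 (-0.16). Differences that lost the call without 1 library, beside those given above, were MIR924HG (adjusted p of 0.0114 to 0.0135 without MCF10A pLOC-empty replicate 1, MCF10A pLOC-MALINC1 replicate 2 or DCIS.COM pLOC-MALINC1 replicate 1, and a value of 0.91, under 2-fold, without DCIS.COM pLOC-empty replicate 1), LINC00965 (0.0102 to 0.0145 in 5 of 8 fits, without replicate 2 of either MCF10A group, replicate 1 or 2 of DCIS.COM pLOC-empty or replicate 1 of DCIS.COM pLOC-MALINC1) and LINC01094 (0.0117 to 0.0198 in 5 of 8, without replicate 1 of any group or replicate 2 of DCIS.COM pLOC-empty). The calls of MIR503HG and LINC00639 in MCF10A were lost in 5 and 6 of 8.

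Same-numbered libraries did not deviate together (correlations of -0.07 to 0.04). The labels do not say whether the numbers pair the samples, and these correlations cannot exclude it, since a weak shared shift would not show. With the replicate block 13 members were called in MCF10A, 10 in DCIS.COM, 14 for the difference, 55 between the lines with pLOC-empty and 53 with pLOC-MALINC1. Chosen after the data were seen, leaving out the 16 members with 20% or more of their 76-base stretches in another gene gave 11, 9, 12, 47 and 46 calls.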

Other observations

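LINC00963 and LINC00294 were lower with pLOC-MALINC1 in both lines at an adjusted p below 0.01, under 2-fold, and were named after their values were seen. LINC00963 fell from 16.7 and 17.7 CPM to 9.06 and 8.99 CPM in MCF10A (log2FC of -0.92 ± 0.10 SE, adjusted p = 6.02e-06) and from 8.67 and 9.26 CPM to 6.70 and 5.97 CPM in DCIS.COM (log2FC of -0.5 ± 0.10 SE, adjusted p = 0.00101). LINC00294 fell from 18.6 and 16.7 CPM to 13.7 and 12.7 CPM in MCF10A (log2FC of -0.42 ± 0.094 SE, adjusted p = 0.00265) and from 7.0 and 7.11 CPM to 5.07 and 5.0 CPM in DCIS.COM (log2FC of -0.48 ± 0.094 SE, adjusted p = 0.00116). In both RNAs the vector groups did not overlap in either line.

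SNORA63, a further snoRNA among the tested genes, was at 37.6 and 29.7 CPM against 44.9 and 55.1 CPM in MCF10A (log2FC of 0.57 ± 0.14 SE, adjusted p = 0.00449). In DCIS.COM SNORA63 was at 56.8 and 56.6 CPM against 35.4 and 25.5 CPM (log2FC of -0.91 ± 0.14 SE, adjusted p = 0.000203). These are the same signs as those of the 7 snoRNAs of the SNHG genes and GAS5. Its host was not established, and other snoRNAs of the table were not compared.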
